A study of Mus musculus with 35 samples.

Results

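The mouse genome holds 39 Hox genes in 4 clusters, and 38 of them were followed here. They were taken by name, not by any measured value: 10 genes of HoxA on chromosome 6, 10 of HoxB on chromosome 11, 9 of HoxC on chromosome 15 and 9 of HoxD on chromosome 2. They make up 38 of the 21631 protein-coding genes of chromosomes 1 to 19 and X in the RefSeq gene table. The remaining Hox gene is not analysed here. By paralog group, the number in a gene's name that counts along the cluster, 11 of the 38 are anterior (groups 1 to 4), 11 central (5 to 8) and 16 posterior (9 to 13).

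Hox genes encode homeodomain transcription factors that tell cells where they lie along the body axis. Their order on the chromosome follows the order of their domains in the embryo, with anterior genes at one end of a cluster and posterior, limb and tail genes at the other. Fibroblasts are known to keep the Hox pattern of the body site they came from, and in embryonic stem cells (ESC) the clusters are known to be held silent by Polycomb complexes. Acetylation of lysine 27 of histone H3 (H3K27ac) marks active promoters and enhancers, and KLF4, a zinc finger factor of the reprogramming set, binds GC-rich sites with a CACCC core.

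The study sampled mouse embryonic fibroblasts (MEF) and the same kind of cell during reprogramming. The MEF came from mice that carry a doxycycline-inducible cassette of Oct4, Klf4, Sox2 and c-Myc (OKSM) at Col1a1 and the M2rtTA transactivator at Rosa26, on a C57BL/6 x 129 background. They were given 1 µg/ml doxycycline with 50 µg/ml ascorbic acid and were taken unsorted on day 3, and as sorted SSEA1-positive cells on day 6 and day 9. V6.5 ESC, grown on irradiated feeder cells in serum medium with LIF, were the pluripotent reference, and a second ESC group also had 1 µM MEK inhibitor and 3 µM GSK3 inhibitor (2i). H3K27ac was mapped in 12 libraries: 2 of MEF, 3 of day 3, 3 of day 6, 2 of day 9 and 2 of serum ESC. KLF4 was mapped in 10 libraries, 2 each for day 3, day 6, day 9, serum ESC and ESC in 2i. The KLF4 of days 3 to 9 comes in part from the cassette. The labels do not say which part of the embryo gave the MEF, nor whether the MEF libraries and the induced cells came from one isolation, so stage and fibroblast isolate cannot be told apart in what follows. Nor do they say whether the libraries of a group came from separate cultures, so that the spread between libraries may be technical. A code in the sample titles is read as a batch below, although the labels do not say what it stands for.

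What was measured is a peak list per library. For each gene the window was the gene with 2.5 kb to each side, and its value in a library is the percent of the window covered by that library's peaks, called coverage below. The windows of 29 of the 38 genes overlap that of another Hox gene, so neighbours are not independent. The lists differed in size, from 17493 peaks covering 9.21 Mb (a day 6 library) to 88347 peaks covering 83.5 Mb (a MEF library) for H3K27ac, and from 21129 to 34640 peaks for KLF4. Sequencing depth is unknown, so no peak means no called peak and not no signal. H3K27ac peaks covered 3.16% ± 0.0203 (SD, n = 2) of the genome in MEF, 1.17% ± 0.278 (n = 3) on day 3, 0.502% ± 0.222 (n = 3) on day 6, 1.87% ± 0.0172 (n = 2) on day 9 and 2.44% ± 0.107 (n = 2) in ESC.

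Coverage of the Hox genes was well above that of all genes in MEF and on day 3, and closer to it at the later stages. Their median coverage was 25.6% in MEF and 20.4% on day 3, where the medians of all 21631 genes were 4.18% and 1.30%. It was 1.41% on day 6, 2.57% on day 9 and 3.70% in ESC, beside 0.412%, 3.08% and 2.74% for all genes. A peak lay in every library of the stage at 27 of the 38 genes in MEF, 24 on day 3, 13 on day 6, 16 on day 9 and 19 in ESC. The corresponding shares of all genes were 66.3%, 52.8%, 43.7%, 63.5% and 65.9%. The share of Hox genes with a peak, 27 of 38 in MEF and 24 of 38 on day 3, was thus above that of all genes at those stages and below it on days 6 and 9 and in ESC.

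An exact permutation test of the between-stage F over the 12 libraries, with Benjamini-Hochberg adjustment over the 17010 genes that had any peak, called 28 of the 35 Hox genes tested. The background was 81.2% of all genes tested, so this share, 80% of those tested, says nothing particular about Hox genes. Hoxc12, Hoxc13 and Hoxd12, with peaks in both libraries of 1 stage alone, had a p of 0.0455 in this exact permutation test. Any gene with this pattern gets that p, whatever its coverage, so the outcome was fixed by the design. These genes and Hoxc11 had an adjusted p of 0.0508, so their values are given without a call. Hoxb9, Hoxb13 and Hoxd9 were not called either. Hoxb1, Hoxd1 and Hoxd4 had no H3K27ac peak in any library. When each library was limited to the same number of top peaks the test called 9 of 33 Hox genes and 65.1% of all genes tested, and with the top 50% of each list 18 of 34 and 74.7%.

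**Figure D1:**
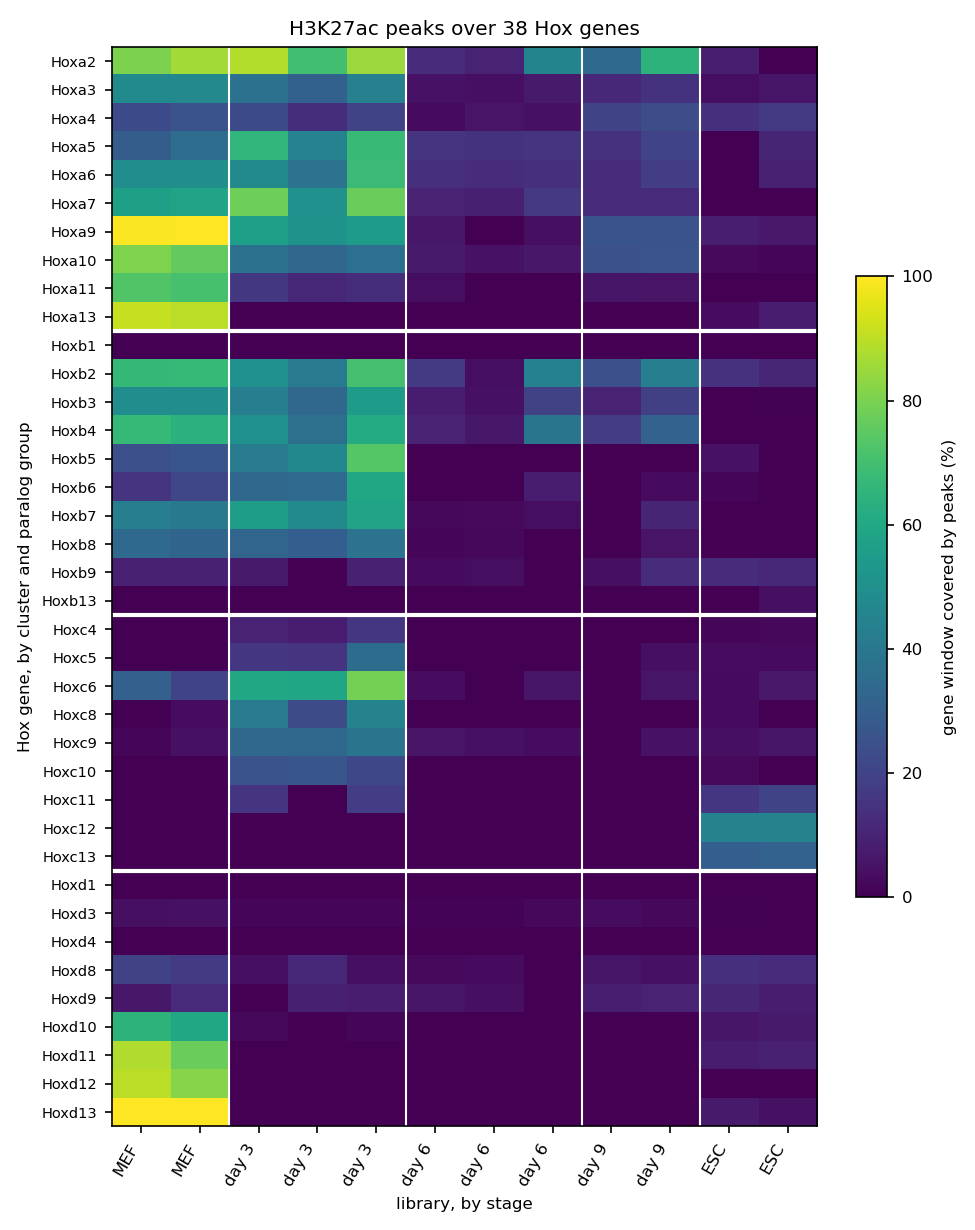
Coverage (percent of the gene window, colour scale 0 to 100) of the 38 Hox genes, one row per gene and one column per H3K27ac library, with white lines between clusters and between stages. The posterior HoxA and HoxD genes are highest in MEF, the central HoxC genes on day 3, and Hoxc12 and Hoxc13 in ESC.

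The counts by position differed between stages. Of the 16 posterior genes, 11 had a peak in every MEF library, 5 in every day 3 library, 2 on day 6, 5 on day 9 and 12 in ESC. Of the 11 central genes, 9 had one in every MEF library and all 11 in every day 3 library, then 4, 4 and 3 at the later stages. Of the 11 anterior genes the counts were 7, 8, 7, 7 and 4. The mean coverage of the central genes was 27.6% in MEF and 45% on day 3, whereas that of the posterior genes was 43.3% in MEF and 11.7% on day 3.

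The posterior ends of HoxA and HoxD were covered far more in MEF than on day 3. Hoxd13, which patterns the digits, was covered over 100% of its window in both MEF libraries, 0% in all 8 libraries of days 3, 6 and 9, and 7.38% and 4.46% in ESC. Its window, on a gene at chr2:74668225-74671603, was thus filled in MEF and empty at every stage of reprogramming measured. Hoxd12 (chr2:74675013-74677705) had 89.5% and 81.8% in MEF and 0% in the other 10 libraries. Hoxd11, a regulator of forearm and kidney growth (chr2:74679558-74687016), had 88.1% and 77.3% in MEF, 0% from day 3 to day 9, and 7.80% and 9.06% in ESC. Hoxd10 had 64.8% and 59.7% in MEF and at most 1.96% on day 3. MEF did not overlap any other stage at these 4 genes. Hoxd13, Hoxd11 and Hoxd10 changed by the exact permutation test (adjusted p = 0.0045, 0.0045 and 0.00202). They passed in 18, 17 and 17 of 19 alternatives, with that p at most 0.0581. These 19, here and below, leave out the permutation within replicate blocks of batch DG-3458, in which 0 of 35 Hox genes passed. The smallest possible p of that permutation lies just under the threshold. After adjustment a gene could pass only if most genes tested reached it, so its outcome says nothing about these genes.

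In HoxA the day 3 libraries held part of the MEF coverage. Hoxa13, the HoxA gene of hand, foot and genital development (chr6:52258853-52260880), had 91.0% and 89.8% in MEF, 0% in all 8 libraries of days 3 to 9, and 3.33% and 7.50% in ESC. Hoxa11, which patterns forearm and uterus, had 72.8% and 70.8% in MEF, then 16.1%, 11.4% and 13.2% on day 3, 3.53%, 0% and 0% on day 6, 5.63% and 5.42% on day 9, and 0% in ESC. Hoxa10 went from 80.7% and 76.1% in MEF to 37.9%, 33.0% and 36.5% on day 3. Hoxa9, a factor of blood progenitors and trunk patterning (chr6:52223097-52227370), had the widest range of stage means in HoxA. Its values were 99.3% and 100% in MEF, 56.3%, 51.5% and 55.1% on day 3, 6.60%, 0% and 4.01% on day 6, 25.9% and 25.6% on day 9, and 8.41% and 6.64% in ESC. MEF lay above every day 3 library at all 4 genes, and all 4 changed by the exact permutation test (adjusted p from 0.000599 to 0.0045). Hoxa9 and Hoxa10 passed in all of those 19 alternatives, Hoxa13 in 18 and Hoxa11 in 17, with that p at most 0.0581 in them. Day 3 coverage was lower from gene to gene along this end of HoxA, from Hoxa9 through Hoxa10 and Hoxa11 to 0 at Hoxa13.

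Counted over all genes, 8 Hox genes had their lowest MEF library at least 10 percentage points above their highest day 3 library: the 4 posterior HoxA genes and 4 of the 5 posterior HoxD genes, without Hoxd9. The background was 8.92% of all genes, against 21.1% of the Hox genes. These 8 were among the 8 to 10 genes found with a q-value limit of 0.01, with equal numbers of top peaks, with the top 50% of each list, with narrower windows and with each library left out. A peak in every MEF library and in no day 3 library was found at 4 Hox genes, Hoxa13, Hoxd11, Hoxd12 and Hoxd13 (background 6.51%). In batch DG-3458 alone, which holds both MEF and 2 day 3 libraries, 10 Hox genes met the rule, beside 12.2% of all genes. With 2 libraries against 3, an exact permutation test of a single gene cannot reach 0.05 between 2 stages, so pairs of stages are given as values and as counts beside the background.

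The MEF signal at these ends came as very long peaks. Over Hoxd13 and Hoxd12 single MEF peaks of 13382 and 14368 bp were the 8th and 10th longest of their lists of 88070 and 88347 peaks. In HoxA the longest MEF peaks were 11549 bp, over Hoxa11, and 15728 bp, over Hoxa9 and Hoxa10, at ranks 25 and 8. Regions built from peaks of at least 2 libraries of a stage spanned 20103 bp from Hoxa7 to Hoxa10 (chr6:52215559-52235661), 12321 bp over Hoxa11 (chr6:52243617-52255937) and 14847 bp over Hoxd13 and Hoxd12 (chr2:74662719-74677565). In HoxB the longest MEF region, of 6082 bp within Hoxb3 (chr11:96340548-96346629), was present at every stage but ESC. The Hoxa7 to Hoxa10 region was present at every stage with at least part of its length; the Hoxa11 region was present in MEF and on day 3 and in 1 day 6 library, and the HoxD region in MEF and ESC. A further region of 7733 bp over Evx2, the homeobox gene next to Hoxd13, was present in MEF alone.

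**Figure D2:**
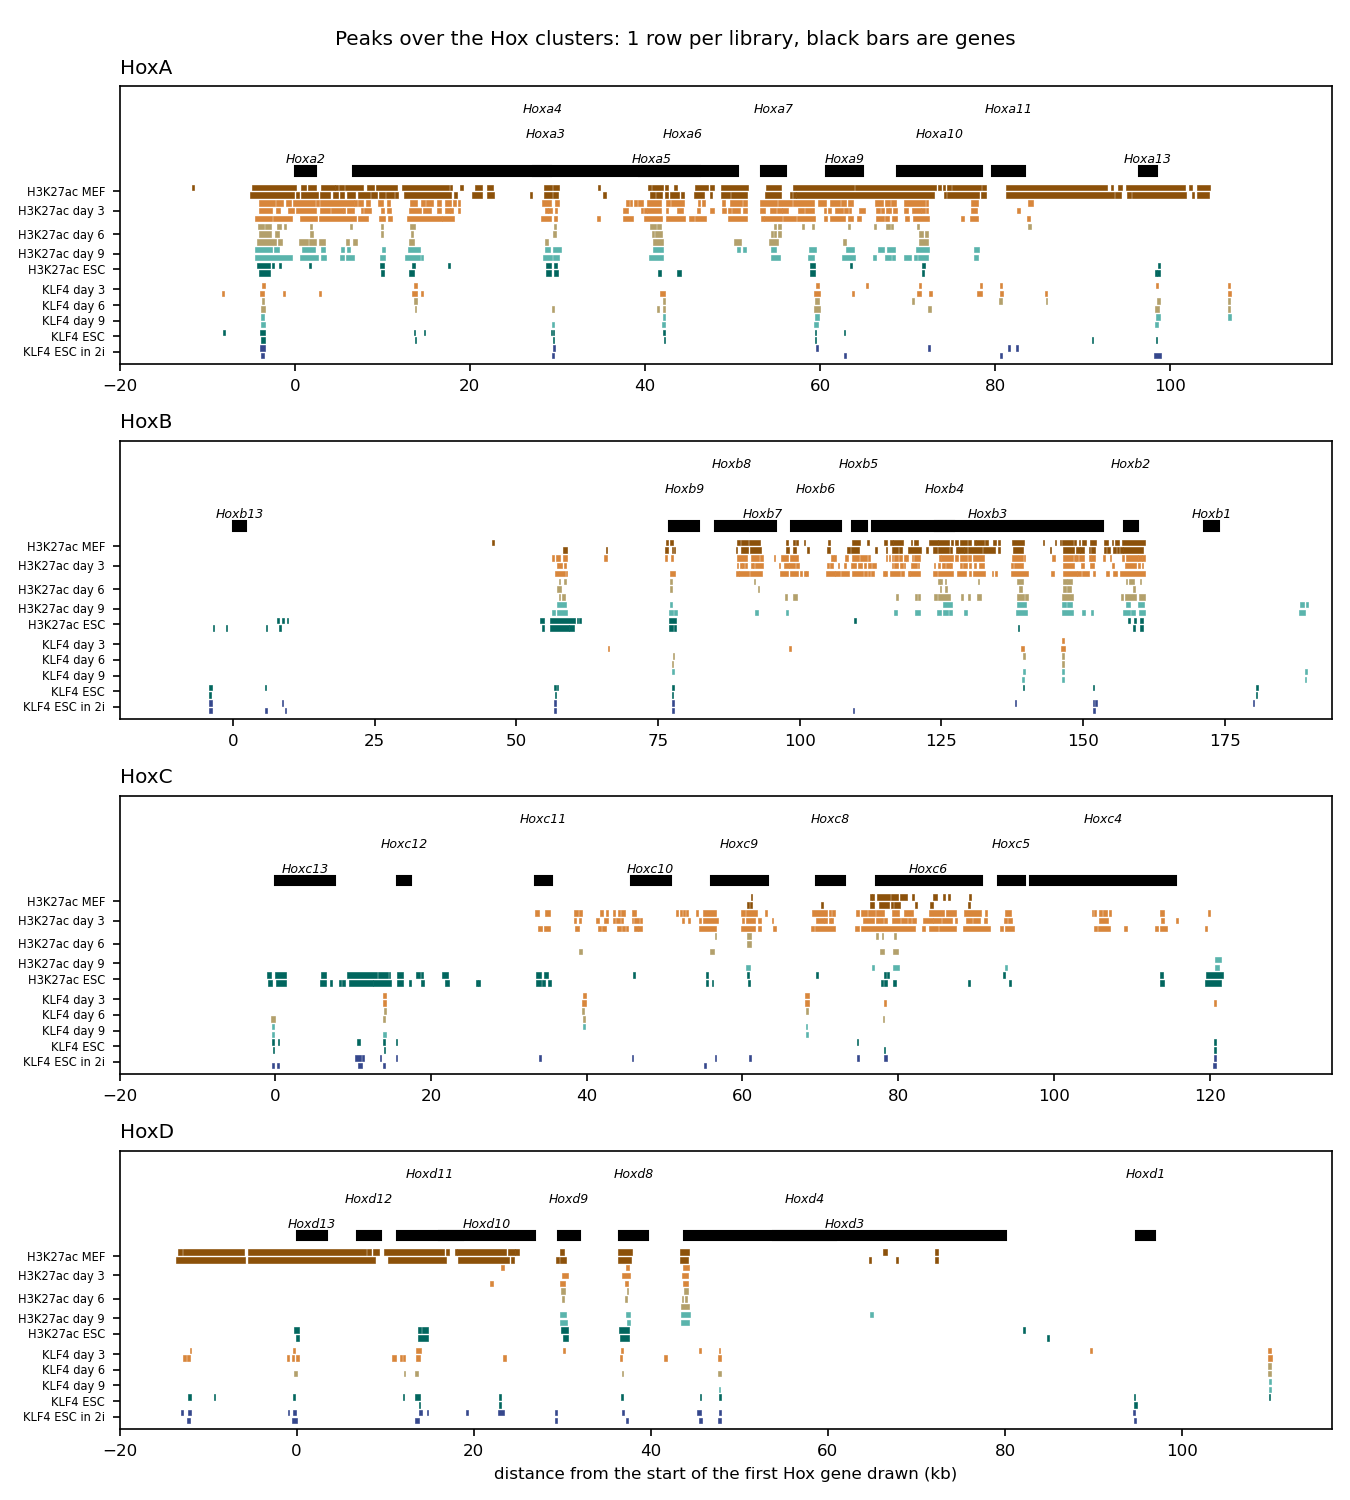
Peaks over the 4 clusters, one thin row per library (5 stages of H3K27ac above, 5 groups of KLF4 below), against the distance in kb from the start of the first Hox gene drawn; black bars above are genes. H3K27ac rows of MEF hold long peaks with short gaps over Hoxa9 to Hoxa13 and Hoxd13 to Hoxd10, while KLF4 rows hold short, scattered peaks.

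The promoters of these genes show where acetylation and KLF4 met. They are printed because 3 of them carried both marks in ESC, 1 carried KLF4 without H3K27ac and 1 carried H3K27ac in MEF alone. Of the 3, Hoxa13 and Hoxd13 had KLF4 in 1 of 2 ESC libraries and the second Hoxd11 start in both. Each is the 250 bases before the RefSeq start (GRCm38.p6), 5′ to 3′ on the gene's strand, with matches to CACCC or GGGNGTGG on either strand in capitals; the motifs overlap where the open base N is G or T.
Hoxa13, chr6:52260881-52261130, minus strand: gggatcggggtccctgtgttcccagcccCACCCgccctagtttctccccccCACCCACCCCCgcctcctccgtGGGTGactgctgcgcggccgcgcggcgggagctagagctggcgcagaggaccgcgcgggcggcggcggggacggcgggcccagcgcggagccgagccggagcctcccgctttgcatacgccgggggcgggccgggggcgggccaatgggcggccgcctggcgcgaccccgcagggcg
Hoxd13, chr2:74667975-74668224, plus strand: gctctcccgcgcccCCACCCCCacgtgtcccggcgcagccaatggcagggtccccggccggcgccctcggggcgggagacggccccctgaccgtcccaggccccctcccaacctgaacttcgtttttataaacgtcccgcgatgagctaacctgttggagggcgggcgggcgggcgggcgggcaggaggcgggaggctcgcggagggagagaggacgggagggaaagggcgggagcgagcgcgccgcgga
Hoxd12, chr2:74674763-74675012, plus strand: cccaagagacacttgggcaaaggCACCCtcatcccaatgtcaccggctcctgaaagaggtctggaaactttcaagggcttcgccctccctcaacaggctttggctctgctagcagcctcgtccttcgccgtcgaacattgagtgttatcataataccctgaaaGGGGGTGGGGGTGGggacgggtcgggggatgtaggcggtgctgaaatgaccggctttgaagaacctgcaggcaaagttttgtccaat
Hoxd11, before its second RefSeq start, which lies inside the gene, chr2:74682073-74682322, plus strand: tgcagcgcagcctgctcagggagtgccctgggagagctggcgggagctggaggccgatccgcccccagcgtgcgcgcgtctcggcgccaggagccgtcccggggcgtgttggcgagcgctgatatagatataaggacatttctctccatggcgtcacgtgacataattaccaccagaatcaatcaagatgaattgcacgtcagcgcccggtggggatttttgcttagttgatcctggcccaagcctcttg
Hoxd1, chr2:74762730-74762979, plus strand: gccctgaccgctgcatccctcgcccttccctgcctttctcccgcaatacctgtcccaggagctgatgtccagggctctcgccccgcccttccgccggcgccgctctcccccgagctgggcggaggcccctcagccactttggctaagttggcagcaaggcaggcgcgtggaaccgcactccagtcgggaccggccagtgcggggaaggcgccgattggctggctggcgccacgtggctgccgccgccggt
The Hoxa13 stretch holds 4 matches to CACCC and 1 to GGGNGTGG, the Hoxd13 stretch 1 and 1, the Hoxd12 stretch 3 and 2, and the Hoxd11 and Hoxd1 stretches none of either.

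H3K27ac covered all 250 bases of the Hoxa13, Hoxd13, Hoxd12 and Hoxd11 promoters in MEF and none of them from day 3 to day 9. In both ESC libraries it covered 174.5 bases on average at Hoxa13, 182.5 at Hoxd13 and 207.5 at the second Hoxd11 start, and none at Hoxd12. KLF4 peaks touched the Hoxa13 promoter in 7 of the 10 KLF4 libraries: both of day 6, both of day 9, and 1 each of day 3, ESC and 2i. At the Hoxd13 promoter they were found in both day 3 libraries, 1 of day 6, none of day 9, 1 of ESC and both in 2i. Before the second Hoxd11 start they were found in both libraries of day 3, ESC and 2i and in none of days 6 and 9. The stretch before the first Hoxd11 start, chr2:74679308-74679557, was covered by H3K27ac in MEF alone and had KLF4 in 1 day 3 library alone. The Hoxd1 promoter had KLF4 in both ESC and both 2i libraries, none from day 3 to day 9, and no H3K27ac at any stage. The Hoxd12 promoter, the one of these with the most GGGNGTGG matches, had no KLF4 peak. Over all 24 promoter entries that matched 22 of the 38 genes, CACCC occurred in 15 (62.5%) and GGGNGTGG in 6 (25%), beside 52.0% and 15.9% of all 32851 promoters of this length. A match is a run of letters and not a shown binding site.

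Most anterior and central HoxA and HoxB genes were broadly covered both in MEF and on day 3, and less on day 6. Hoxb4, a factor of blood stem cells and neck patterning (chr11:96318267-96321638), had the widest range of stage means in HoxB. Its values were 66.9% and 63.7% in MEF, 50.4%, 36.9% and 61.4% on day 3, 9.87%, 6.61% and 39% on day 6, 18.0% and 31.4% on day 9, and 0% in both ESC libraries. The day 3 range lay below MEF, and 1 day 6 library, that of batch EA-3702, overlapped day 3. Hoxb2, which patterns the hindbrain, had the highest ESC mean of HoxB. It had 66.8% and 66.9% in MEF, 50.1%, 41.1% and 70.6% on day 3, 17.1%, 3.57% and 44.0% on day 6, 24.4% and 42.8% on day 9, and 14.1% and 10.9% in ESC. Both changed by the exact permutation test (adjusted p = 0.0121 for Hoxb4 and 0.0408 for Hoxb2), but Hoxb2 passed in 3 of the 19 alternatives other than the replicate block, with that p from 0.0149 to 0.129. Hoxa2, the hindbrain and second arch gene, stayed at 88.5%, 69.6% and 85.1% on day 3 after 80.3% and 86.1% in MEF. Hoxa7 (78.0%, 50.6% and 77.3% on day 3) and Hoxa5, a lung and rib gene (65.7%, 44.5% and 67.7%), reached above their MEF values of 56.8% and 58.5%, and 29.3% and 35.8%, in 2 and 3 of the 3 libraries.

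Between day 3 and day 6, 17 Hox genes had their lowest day 3 library at least 10 points above their highest day 6 library: 7 of HoxA, 5 of HoxB, 5 of HoxC and none of HoxD. The background was 1.08% of all genes, beside 44.7% of the Hox genes. No Hox gene met the rule in the other direction (background 0.00925%, which is 2 genes). With equal numbers of top peaks the count was 9, beside 0.467% of all genes. Day 6 lists were the shortest of the series, and day 6 cells were sorted where day 3 cells were not; the part of either in this result was not tested. Against ESC, 21 Hox genes were at least 10 points higher in MEF (background 8.39%), 9 of HoxA, 7 of HoxB, 1 of HoxC and 4 of HoxD; with equal numbers of top peaks 11 were, beside 6.45% of all genes. A peak in every MEF and no ESC library was found at 6 Hox genes, Hoxa7, Hoxa11, Hoxb4, Hoxb7, Hoxb8 and Hoxd12 (background 5.46%), and at 10 without ESC library 1 (6.74% of all genes). It was found at 12 with equal numbers of top peaks and at 14 with the top 50% of each list, beside 9.62% and 7.52% of all genes.

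**Figure D3:**
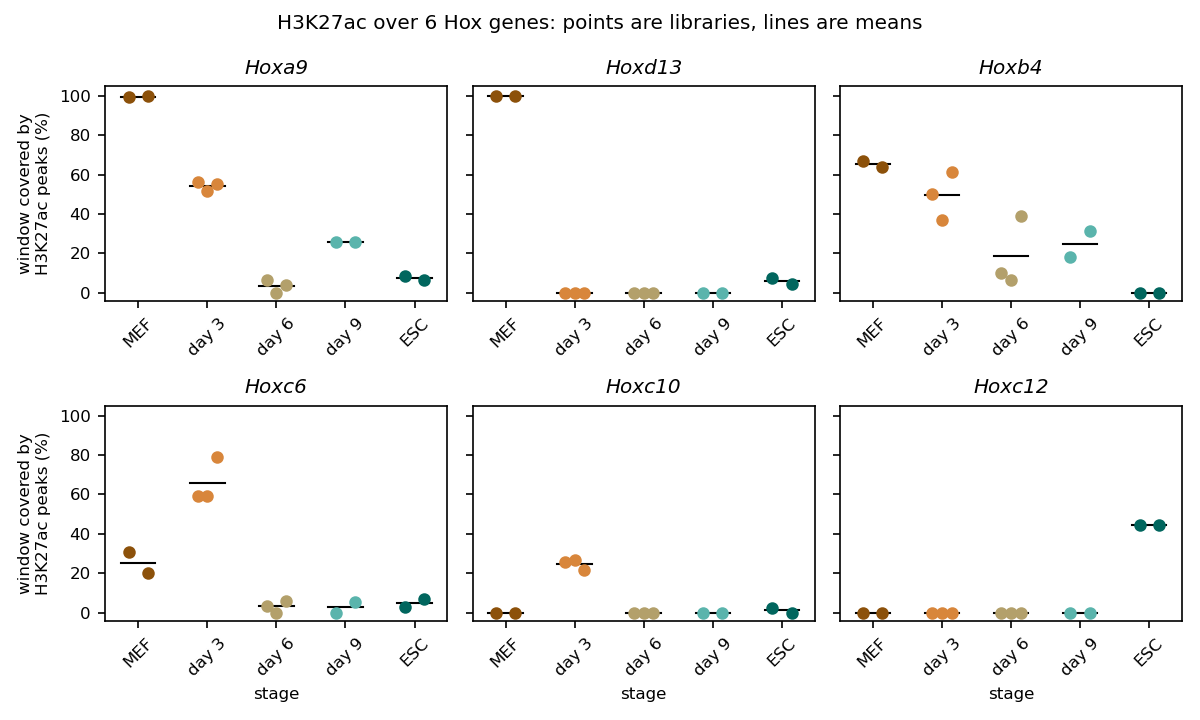
Coverage of 6 Hox genes by stage (percent of the window; coloured points are libraries, black lines stage means). Hoxd13 and Hoxa9 are highest in MEF, Hoxb4 in MEF and on day 3, Hoxc6 and Hoxc10 on day 3, and Hoxc12 in ESC.

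HoxC was covered more on day 3 than in MEF. In MEF 2 of its 9 genes had a peak in both libraries, and on day 3 6 had one in all 3 libraries. Hoxc10, a hindlimb and lumbar gene (chr15:102966796-102971898), had 0% in both MEF libraries, 25.6%, 26.6% and 21.9% on day 3, 0% on day 6 and day 9, and 2.42% and 0% in ESC. Hoxc8, which patterns the lower thorax (chr15:102990539-102994275), had 0% and 3.25% in MEF, 41.3%, 23.0% and 44.8% on day 3 and 0% on days 6 and 9. Hoxc9 had 1.93% and 4.68% in MEF and 33.8%, 33.4% and 38.5% on day 3. All day 3 libraries lay above all libraries of the other 4 stages at these genes and at 7 more, Hoxa5, Hoxb5, Hoxb6, Hoxb7, Hoxc4, Hoxc5 and Hoxc6, which makes 10 of 38 Hox genes beside 0.472% of all genes. Hoxc6 (chr15:102998226-103011882), with the widest range in HoxC, had 30.8% and 20.1% in MEF, 59.4%, 59.1% and 79.0% on day 3, 3.45%, 0% and 6.05% on day 6, 0% and 5.56% on day 9, and 3.02% and 6.79% in ESC. Hoxc5 and Hoxc4, its anterior neighbours, had no MEF peak and day 3 values of 15.7%, 15.6% and 35.3%, and of 9.42%, 7.95% and 16.0%. All 6 genes changed by the exact permutation test (adjusted p from 0.00211 to 0.0307). In the same 19 alternatives, without the replicate block, Hoxc6 passed in 19, Hoxc4 in 17, Hoxc9 in 16, Hoxc8 and Hoxc10 in 14 each and Hoxc5 in 10, with that p at most 0.154.

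Counted over all genes, 7 Hox genes had their lowest day 3 library at least 10 points above their highest MEF library, which 70 of 21631 genes did (background 0.324%): Hoxc5, Hoxc6, Hoxc8, Hoxc9, Hoxc10, Hoxb5 and Hoxb6. The count was 7 in batch DG-3458 alone, beside 0.328% of all genes. It was 11 without day 3 library 2 of that batch, 13 with equal numbers of top peaks and 4 with the top 50% of each list, where 0.559%, 0.365% and 0.217% of all genes met the rule. Day 3 lists covered less of the genome than MEF lists, and the part of list size in these counts was not tested. Hoxc4, Hoxc5 and Hoxc10 had a peak in every day 3 and no MEF library (background 0.703%). With equal numbers of top peaks 13 Hox genes had, beside 1.88% of all genes. The day 3 cells were unsorted and grew in ESC medium, and whether they descend from the MEF sampled here is not stated, so stage, medium and isolate cannot be told apart.

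In ESC coverage of HoxC was highest at its posterior end, although all 9 genes had a peak in at least 1 ESC library. Hoxc12 (chr15:102936826-102938609) had 44.5% and 44.8% in ESC and 0% in the other 10 libraries. Hoxc13, a hair and nail gene (chr15:102921131-102928814), had 29.7% and 31.6% in ESC and 0% elsewhere. Hoxc11 had 15.7% and 20.4% in ESC, 15.4%, 0% and 18.3% on day 3 and 0% elsewhere, so that ESC and day 3 overlapped. These 3 were the Hox genes at least 10 points higher in ESC than in MEF (background 6.78%), and Hoxc13 alone met the rule with equal numbers of top peaks, beside 3.65% of all genes. Hoxc4, Hoxc5, Hoxc11, Hoxc12 and Hoxc13 had a peak in every ESC and no MEF library (background 6.14%). With equal numbers of top peaks 1 Hox gene had, beside 5.59% of all genes. The longest MEF region of HoxC, of 7162 bp over Hoxc6 (chr15:102996298-103003459), was present in every MEF and day 3 library, in 2 day 6 libraries and 1 of day 9, and in both ESC libraries over a mean of 774.5 bp. The HoxC region with the most bases covered in ESC, of 5685 bp (chr15:102930318-102936002), lay between Hoxc13 and Hoxc12, 824 bp from the latter, and was present in ESC alone. The one with the most bases covered in ESC in HoxB, of 4465 bp (chr11:96250198-96254662), lay between Hoxb13 and Hoxb9, 16668 bp from Hoxb9, and was present in every library of days 3, 6 and 9 and of ESC and in 1 of 2 MEF libraries. ESC were grown on feeder cells, whose part in the ESC values was not tested. Elsewhere ESC coverage was low: the highest ESC means were 15.4% ± 2.51 (SD, n = 2) at Hoxa4 in HoxA and 12.7% ± 1.21 (n = 2) at Hoxd8 in HoxD.

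Day 9 stood above day 6 at 3 Hox genes by the rule of 10 points, Hoxa4, Hoxa9 and Hoxa10, close to the background of 7.30% of all genes. Hoxa4 had 2.96%, 5.37% and 4.40% on day 6 and 20.6% and 23.7% on day 9, which overlaps its MEF libraries (22.4% and 25.4%). Hoxa10 had 7.09%, 4.99% and 6.48% on day 6 and 24.9% and 26.4% on day 9. Of the posterior genes that were broadly covered in MEF, Hoxa13 and Hoxd10 to Hoxd13 had no peak in either day 9 library. Day 9 libraries are all of batch EA-3702 and MEF and ESC libraries all of DG-3458, so for these pairs batch and stage cannot be told apart.

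Set against the ends of the course, day 9 lay below MEF at many Hox genes. In MEF 21 Hox genes were at least 10 points above day 9 (background 7.34%), 8 of HoxA, 7 of HoxB, 1 of HoxC and 5 of HoxD, and none was in the other direction (background 2.97%). Hoxa13, Hoxb5, Hoxd10, Hoxd11, Hoxd12 and Hoxd13 had a peak in both MEF and no day 9 library (background 5.7%). Above ESC on day 9 were 6 genes, Hoxa2, Hoxa7, Hoxa9, Hoxa10, Hoxb2 and Hoxb4 (background 2.58%), and below it Hoxc11, Hoxc12 and Hoxc13 (background 5.94%). Hoxa7, Hoxa11 and Hoxb4 had a peak in both day 9 and no ESC library (background 2.66%), and 8 genes had the reverse (background 5.0%): Hoxa13, Hoxc4, Hoxc11, Hoxc12, Hoxc13, Hoxd10, Hoxd11 and Hoxd13. No Hox gene had a peak in both day 9 libraries and none on day 6 (background 8.87%).

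Day 3 stood apart from the pluripotent state over a wide set of genes. On day 3 20 Hox genes were at least 10 points above ESC (background 0.98%), 8 of HoxA, 7 of HoxB, 5 of HoxC and none of HoxD. In the other direction there were 2, Hoxc12 and Hoxc13 (background 9.45%). A peak in every day 3 and no ESC library was found at Hoxa7, Hoxa11, Hoxb4, Hoxb7 and Hoxb8 (background 1.56%). The reverse was found at Hoxa13, Hoxc12, Hoxc13, Hoxd11 and Hoxd13, all posterior (background 8.76%). Hoxb5, Hoxc4, Hoxc8 and Hoxc10 had a peak in every day 3 and no day 9 library (background 0.767%), and the same 4 with Hoxc5 had one in every day 3 and no day 6 library (background 3.23%).

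By cluster, from the first to the last gene, HoxA was covered over 65.9% ± 0.511 (SD, n = 2) in MEF, 36.5% ± 4.67 (n = 3) on day 3, 5.95% ± 2.5 (n = 3) on day 6, 15.4% ± 2.38 (n = 2) on day 9 and 3.66% ± 0.487 (n = 2) in ESC. HoxB was covered over 20.0% ± 0.531 in MEF and 20.8% ± 5.20 on day 3, with overlapping libraries, and 4.8% ± 0.644 in ESC. HoxC was covered over 4.58% ± 0.837 in MEF, 23.7% ± 3.98 on day 3, 1.07% ± 0.577 on day 6, 0.852% ± 1.20 on day 9 and 12% ± 0.904 in ESC. HoxD was covered over 27.1% ± 0.897 in MEF and 1.81% ± 0.554 on day 3. Day 6, day 9 and ESC overlapped in HoxB, whose day 6 and day 9 means were 4.47% ± 3.18 and 7.14% ± 3.35. In HoxD the later means were 0.994% ± 0.0688 on day 6, 2.3% ± 0.259 on day 9 and 3.4% ± 0.169 in ESC. With 50 kb added to each side, MEF minus ESC was 34.9 ± 0.241 points for HoxA, 10.9 ± 0.41 for HoxB, -5.23 ± 0.399 for HoxC and 19.4 ± 0.211 for HoxD (± is the pooled SD of the libraries). With equal numbers of top peaks the HoxB difference turned to -1.44. The flanks alone were covered over 15.4% ± 0.37 in MEF at HoxD and over 0% in MEF at HoxC.

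**Figure D4:**
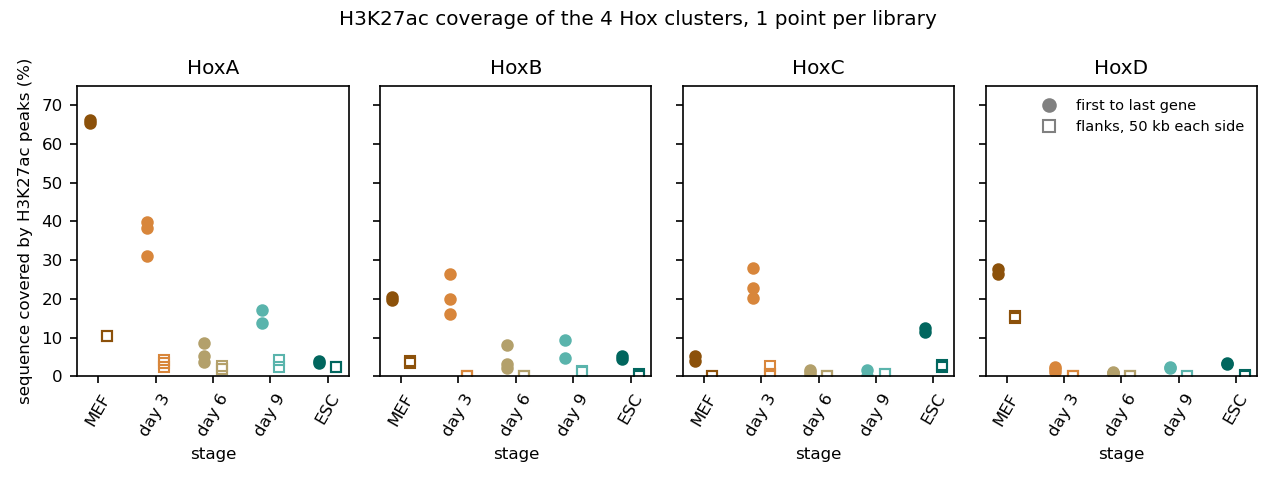
Percent of sequence covered by H3K27ac peaks in each library (points), from the first to the last gene of a cluster (filled) and over the 50 kb to each side (open squares), by stage. From the first to the last gene, HoxA and HoxD are highest in MEF, HoxC on day 3 and next in ESC, and MEF and day 3 overlap in HoxB.

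KLF4 peaks in the clusters were few and short. Median coverage of the Hox genes was 0.99% on day 3, 0.167% on day 6, 0% on day 9, 0% in serum ESC and 1.27% in 2i, beside 0.414%, 0.288%, 0.156%, 0.210% and 0.369% for all genes. A peak in both libraries of a stage was found at 12 Hox genes on day 3, 9 on day 6, 8 on day 9, 12 in ESC and 16 in 2i, where 41.6%, 39.7%, 43.1%, 40.5% and 44.0% of all genes had one. Without the library of batch DG-4040 the count was 19 on day 3 (54.7% of all genes) and 17 on day 6 (52.5%), each then from 1 library. In all, 22 Hox genes (57.9%, beside 60% of all genes) had KLF4 in both libraries of at least 1 stage: Hoxa3, Hoxa4, Hoxa5, Hoxa6, Hoxa9, Hoxa10, Hoxa11, Hoxa13, Hoxb3, Hoxb9, Hoxc6, Hoxc8, Hoxc9, Hoxc12, Hoxc13, Hoxd1, Hoxd3, Hoxd8, Hoxd9, Hoxd10, Hoxd11 and Hoxd13. Of the 10 HoxB genes these are 2, Hoxb3 and Hoxb9. No KLF4 peak in any library was found at 9 (23.7%, beside 26.3% of all genes): Hoxa7, Hoxb1, Hoxb2, Hoxb4, Hoxb8, Hoxb13, Hoxc4, Hoxc5 and Hoxd4. The exact permutation test of F over 10 libraries called 0 of the 29 Hox genes with a peak and 0 of all 15935 genes (background 0%); unadjusted p-values under 0.05 were found for 4 Hox genes and 1913 genes in all.

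**Figure D5:**
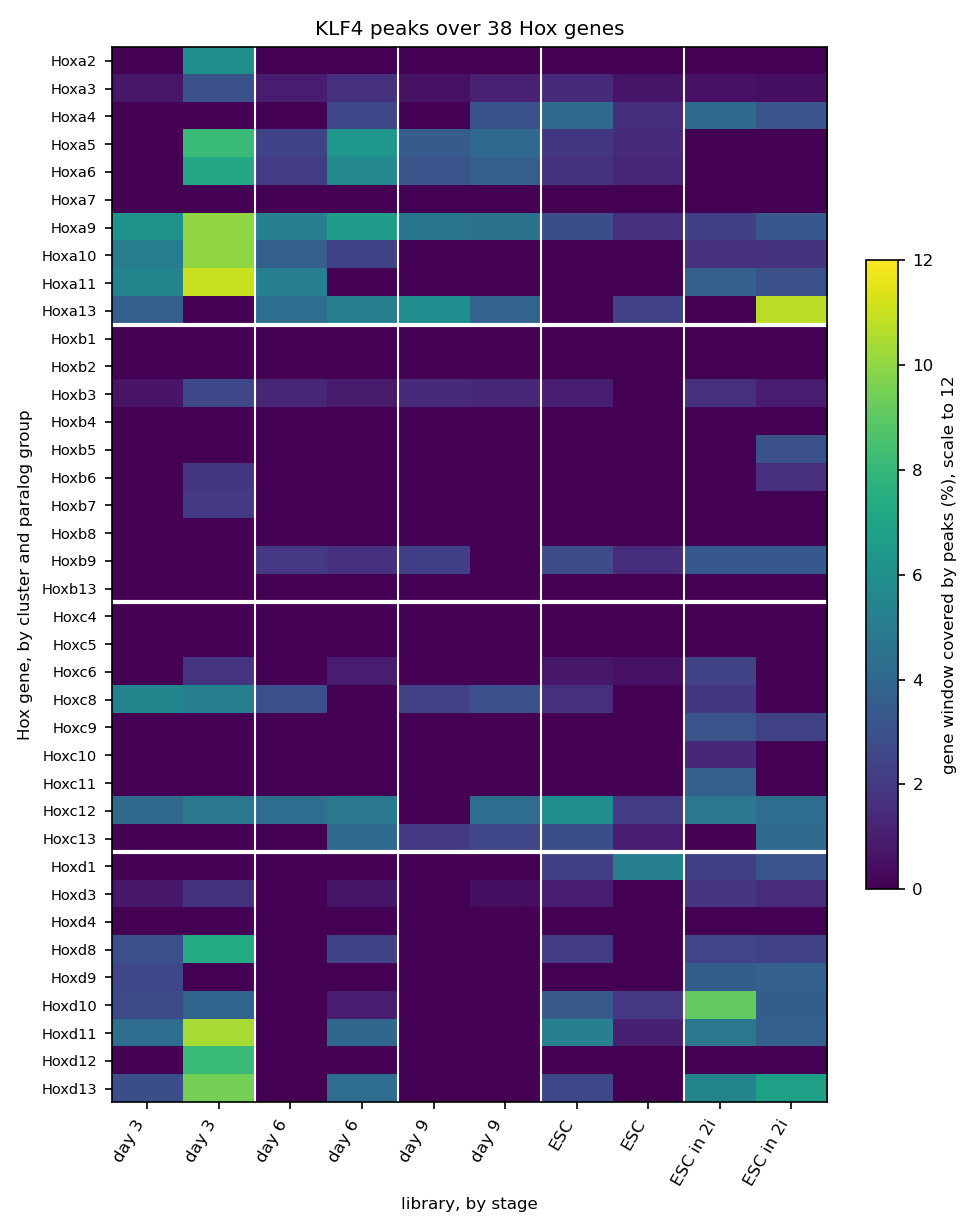
Coverage of the 38 Hox genes by KLF4 peaks (percent of the window, colour scale 0 to 12), one row per gene and one column per library. Values are at most 11.0%, HoxB is nearly empty, and HoxD is empty on day 9 apart from one library at Hoxd3.

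The 6 Hox genes with the highest KLF4 means over the 10 libraries are given in full; the central gene Hoxa5, with a mean close to that of the sixth, Hoxa11, came next. Hoxa9 was the one of them with a peak in every library: 6.15% and 10.0% on day 3, 5.24% and 6.63% on day 6, 4.71% and 4.50% on day 9, 2.90% and 1.63% in ESC, and 2.29% and 3.25% in 2i. The lowest day 3 value lay above both ESC and both 2i values. Hoxc12 had 4.16% and 4.81% on day 3, 4.30% and 4.79% on day 6, 0% and 4.29% on day 9, 5.97% and 2.14% in ESC and 4.75% and 4.30% in 2i. The higher day 9 value lay just below the lowest of day 6 and of 2i, and the other stages overlapped. Hoxa13 had 3.59% and 0% on day 3, 4.33% and 5.17% on day 6, 5.82% and 3.83% on day 9, 0% and 2.36% in ESC and 0% and 10.7% in 2i. Its libraries of one stage differed by as much as the stages did.

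At several HoxD genes and at Hoxa10 and Hoxa11, KLF4 peaks were present on day 3 and in 2i and missing on day 9. Hoxd13 had 2.90% and 9.50% on day 3, 0% and 4.28% on day 6, 0% on day 9, 2.6% and 0% in ESC and 5.42% and 6.83% in 2i. Hoxd11 had 4.31% and 10.4% on day 3, 0% and 4.04% on day 6, 0% on day 9, 5.21% and 1.04% in ESC and 4.76% and 3.68% in 2i. Hoxa11 had 5.40% and 11.0% on day 3, 5.21% and 0% on day 6, 0% on day 9 and in ESC, and 3.57% and 2.99% in 2i. Day 9 was empty at all 3 genes. A peak in both day 3 and no day 9 library was found at 6 Hox genes, Hoxa10, Hoxa11, Hoxd8, Hoxd10, Hoxd11 and Hoxd13 (background 3.93%). Both 2i libraries and no day 9 library had one at 9, the same 6 with Hoxc9, Hoxd1 and Hoxd9 (background 6.02%). The higher day 3 value was in each of these 3 genes that of batch EA-3702, whose list covered 15.2 Mb against 8.17 Mb in the other.

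Between day 3 and serum ESC few genes differed in either direction. Hoxa10 and Hoxa11 had KLF4 in both day 3 and no ESC library (background 3.70%). The count was 6 when the DG-4040 library of day 3 was left out, 7 without the ESC library of batch EA-2643, and 4 with at least 200 bp of peak asked for, beside 7.89%, 10.1% and 5.3% of all genes. Hoxa4, Hoxb9, Hoxc13 and Hoxd1 had it in both ESC and no day 3 library (background 3.38%). There were 7 such genes without the day 3 library of EA-3702, beside 8.38% of all genes, and at most 1 with a q-value limit, with the top 50% of each list, with no flank or with 200 bp of peak. Hoxc13 alone had it in both day 9 and no day 3 library (background 2.66%). Between the ESC groups, Hoxa5 and Hoxa6, whose windows overlap, had KLF4 in both serum and no 2i library (background 1.37%), and Hoxa10, Hoxa11, Hoxc9 and Hoxd9 had the reverse (background 2.0%). Serum ESC libraries share no batch with those of day 3, day 9 or 2i, so in comparisons with serum ESC batch and group cannot be told apart.

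Of the KLF4 regions in the clusters with 50 kb to each side, 34 had peaks in both libraries of some stage, 17 of them on day 3, 11 on day 6, 10 on day 9, 15 in ESC and 15 in 2i. Several were shared by most libraries. In HoxA a region of 671 bp, 710 bp from Hoxa9 (chr6:52221717-52222387), was found in 9 of 10 libraries and had H3K27ac in both MEF, 3 of 3 day 3, 1 of 3 day 6, both day 9 and both ESC libraries. In HoxC a region 1480 bp from Hoxc12 (chr15:102934951-102935346) was found in 8, and had H3K27ac in ESC alone. In HoxB a region in Hoxb9 (chr11:96271743-96272123) was found in 7, with none on day 3, and had H3K27ac in at least 2 libraries of every stage. In HoxD a region in Hoxd11 (chr2:74681628-74682376) was found in 7, and had H3K27ac in both MEF and both ESC libraries and in none between. Of the 17 day 3 KLF4 regions, 10 had H3K27ac in at least 2 libraries of MEF. The counts for day 3, day 6, day 9 and ESC were 6, 4, 6 and 7. Of the 15 ESC regions the counts from MEF to ESC were 7, 6, 4, 7 and 9. The share over all KLF4 regions of the genome was not computed, and H3K27ac lists differ in size between stages. These counts are therefore not compared.

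The clusters also hold noncoding genes. Their mature microRNAs are printed from RefSeq (GRCm38.p6), 5′ to 3′, with the seed, bases 2 to 8, in capitals, because copies of one seed lie in different clusters whose acetylation differed.
miR-10a-5p, HoxB, chr11:96317186-96317208: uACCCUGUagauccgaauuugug
miR-10b-5p, HoxD, chr2:74726074-74726096: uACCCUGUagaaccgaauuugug
miR-196b-5p, HoxA, chr6:52230129-52230150: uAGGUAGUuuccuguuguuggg
miR-196a-5p, from Mir196a-1 in HoxB, chr11:96265187-96265208, and Mir196a-2 in HoxC, chr15:102973365-102973386: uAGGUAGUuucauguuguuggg
miR-615-3p, HoxC, chr15:103014969-103014990: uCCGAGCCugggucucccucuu
The miR-10 pair shares the seed ACCCUGU and the miR-196 genes share AGGUAGU. Mir196b, next to Hoxa9, had H3K27ac coverage of 100% in both MEF libraries, 54.6%, 46.7% and 43.8% on day 3, 17.6%, 0% and 0% on day 6, 32.2% and 38.6% on day 9 and 0% in ESC. Mir196a-2 had 24.5%, 14.6% and 8.02% on day 3 and 0% elsewhere, and Mir196a-1 had 0% throughout. Mir10a, next to Hoxb4, had 59.4% and 61.9% in MEF, 31.2%, 34.2% and 53.9% on day 3, 11.8%, 4.79% and 43.8% on day 6, 2.35% and 31.9% on day 9 and 0% in ESC, whereas Mir10b, inside the Hoxd4 gene, had 0% throughout. Mir615, in the Hoxc5 gene, had 17.8%, 17.6% and 40.6% on day 3, 0% in MEF and on day 6, 0% and 6.5% on day 9, and 5.56% and 5.03% in ESC. Copies of one seed thus lay in windows covered at different stages. The windows of Mir196b, Mir10a, Mir10b and Mir615 lie within those of neighbouring Hox genes, so their values are not separate from the values of those genes. Hottip, a noncoding gene beyond Hoxa13, had a mean of 56.8% in MEF, 0% from day 3 to day 9 and 3.87% in ESC; Hotair, between Hoxc11 and Hoxc12, had 9.01% in ESC and 0% elsewhere; Haglr, beside Hoxd1, had 1.17% in ESC and 0% elsewhere.

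The genes that flank the clusters, and the known partners and regulators of Hox genes, were taken from lists of textbook names. Of 12 flanking genes 10 were called by the F test, 4 of them with MEF above ESC. Those with the smallest p were Skap2, Skap1, Cbx5 and Calcoco1. The homeobox genes next to the clusters are given too, chosen after their values were seen. Evx2, next to Hoxd13, had a mean of 65.4% in MEF and 0% elsewhere (adjusted p = 0.0508 by the exact permutation test). That p is fixed by peaks in MEF alone, whatever the coverage. Evx1, next to Hoxa13, had 0% in MEF, on day 3 and on day 6, 15.3% on day 9 and 11.1% in ESC. All 9 listed DNA-binding cofactors of Hox proteins were called, 6 with MEF above ESC; Pbx4 had 12.9% in MEF and 18.1% in ESC, and Pknox1 5.56% and 31.0%. Of 16 tested upstream regulators, retinoic acid receptors, Cdx factors and Polycomb and Trithorax genes among them, 13 were called, 6 with MEF above ESC; Rara had 54.3% in MEF and 35.8% in ESC, and Jarid2, a Polycomb partner, 3.23% and 9.78%. The share of all genes called was 81.2%.

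Markers check the stage labels. The coverage of 8 fibroblast markers, summed over their windows, was 255 to 256 points in MEF, 33.8 to 76.6 on day 3, 1.00 to 7.24 on day 6, 3.34 to 5.54 on day 9 and 0.933 to 4.64 in ESC. That of 8 pluripotency markers was 6.75 to 11.8 in MEF, 1.09 to 8.26 on day 3, 3.36 to 12.1 on day 6, 101 to 103 on day 9 and 433 to 438 in ESC. The fibroblast sum was thus lower on day 3 than in MEF, as were the posterior HoxA and HoxD genes, and its part in those values was not tested. Of 6 markers of endothelial, blood and epithelial cells, 4 were called, all with ESC above MEF. Cdh5 and Ptprc had at most 0.936% and 0.433% at any stage. The blood marker Cd68 had 27% in MEF, 26.2% on day 3, 51.2% on day 9 and 75.6% in ESC, and the endothelial marker Pecam1 6.81% in MEF and 33.7% in ESC. The epithelial markers Epcam and Krt8 had 22.8% and 32.7% on day 9. The part of such cells in the Hox values was not tested. In chromatin from mixed cells, a share of cells with a mark and the level of the mark per cell cannot be told apart.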

How the data were processed

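Chromatin immunoprecipitation followed by sequencing gave 22 peak lists, 12 for H3K27ac and 10 for KLF4. Input libraries were not used here. Per the submitters' processing notes the build was mm10 and the tools cutadapt 1.8.1, Bowtie2 2.2.5, deepTools 2.3.6 and MACS2 2.1.1; their settings are not given in the sources used here. The deposited lists give for each peak a fold enrichment, a −log10 p-value, a −log10 q-value and a score by the authors, per library; these were used to rank and filter peaks within a list. No counts or depths were given, so depth is unknown and peak number limits precision.

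Gene positions came from the RefSeq table of GRCm38.p6, the assembly behind mm10. The percent of each gene window (2.5 kb flanks) covered by peaks was computed per library. The F statistic between stages was tested by exact permutation of libraries, with Benjamini-Hochberg adjustment over all genes with a peak (Python 3.11.15, numpy 2.4.6, pandas 2.3.3); on simulated data with 200 of 1000 genes shifted, 100% were recovered at spacings of 8 and 20 points, with 10 false calls. In the simulation all stages of a shifted gene lay at distinct levels and no window was empty. Hox genes here often had empty windows, some with peaks in 1 stage alone, so that recovery does not carry over to them. Consensus regions needed peaks in 2 libraries of a stage. Full values were printed for the widest-ranging and the highest ESC gene of each cluster, the 6 genes highest for KLF4, and further genes chosen after their values were seen. The members and lists were chosen with earlier results of these data known, and the rule of 10 points was added after the values were seen. Of the 39 genes of the rule, 1 is not analysed here, and regions over it are counted but not described. Groups followed the labels; alternatives were peak sets, windows, left-out libraries, scaling and permutation within batches.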

Additional observations from a re-analysis of the deposited data

How the results depend on the processing

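With equal numbers of top peaks per library the stage test called 9 Hox genes in place of 28 (65.1% of all genes), and with the top 50% of each list 18 (74.7%); leaving out each library gave 25 to 30. Permuting stages within the replicate block of batch DG-3458 called 0 of 35 Hox genes and 0 of 16723 genes, with a smallest possible p of 0.0417; 10 and 6676 had an unadjusted p under 0.05. Same-numbered libraries had correlations of deviations from -0.0227 to 0.118, 1 of 6 above 0.1, so the numbers were not taken to pair libraries. With equal numbers of top peaks, counts were 12 (9.62% of all genes) for a peak in MEF and not ESC, 1 (5.59%) for ESC and not MEF, 13 (1.88%) for day 3 and not MEF, 13 (0.365%) for day 3 above MEF, 9 (0.467%) for day 3 above day 6, 11 (6.45%) for MEF above ESC and 1 (3.65%) for ESC above MEF. With the top 50% they were 14 (7.52%) for MEF and not ESC and 4 (0.217%) for day 3 above MEF. Leaving out each library gave 6 to 10 for MEF and not ESC and 7 to 11 for day 3 above MEF. For KLF4 in ESC and not day 3 the count was 1 with a q-value limit of 0.01 (2.54% of all genes), with the top 50% (3.83%) and with no flank (3.01%), 0 with 200 bp of peak (1.55%), and 4 to 7 with each library left out. For KLF4 on day 3 and not in ESC it was 4 with 200 bp (5.3%) and 2 to 7 with each library left out. MEF minus ESC by cluster was 10.4 points for HoxB and -4.45 for HoxC with the q-value limit. With equal numbers of top peaks it was 25.8 for HoxA, -1.44 for HoxB, -3.43 for HoxC and 17.4 for HoxD, and with no flank 62.2, 15.2, -7.38 and 23.7. Apart from the smaller peak sets and windows themselves, the cause was not tested. Depth is unknown. Pairs of stages are given as values because an exact permutation test of a single gene between 2 stages cannot reach 0.05.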
